A study of Saccharomyces cerevisiae with 2 samples.

Results

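The large ribosomal subunit assembly factors are the proteins that fold, process and carry the precursor of the large subunit but are not part of the finished ribosome. They were examined here through a list of 53 genes named by function. No threshold on the values was used to choose them, but earlier results of these data were known at the time. All 53 had a value on both arrays, among 5598 genes in all, and MDN1 was found under the current symbol REA1. The budding yeast Saccharomyces cerevisiae had been supplied with 3% pyruvate, or with 2% glucose as the other condition of a carbon source comparison. Each of the 2 arrays compared total RNA of both conditions in a dye swap: pyruvate RNA was in Cy3 on array 1 and in Cy5 on array 2, with glucose RNA in the other dye. The labels give no strain, medium, growth phase or harvest time, and no label states that each array had its own cultures.

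In yeast the large subunit is built from a precursor rRNA that is transcribed in the nucleolus. Early factors (helicases, RNA-binding scaffolds, methyltransferases) act on the nucleolar particle, GTPases and a large AAA ATPase remodel it in the nucleoplasm, and export adapters carry it through the nuclear pore. The last factors are stripped off in the cytoplasm, and several of them shuttle back. Genes of these factors belong to the ribosome biogenesis regulon, which yeast is known to transcribe strongly during fast growth on glucose. The members were sorted by where their protein mainly acts: 39 nucleolar, 8 nucleoplasmic, 5 of export and the cytoplasm, and RRB1, a chaperone of a ribosomal protein. Several factors join early and leave late, so this sorting is a simplification.

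Each value below is a log2 ratio of pyruvate over glucose, and a mean is given ± SD over n = 2 arrays. A value of -1 means that the transcript stood at 2-fold less in pyruvate than in glucose. That direction is likely and is stated by no source: it follows the usual order of Cy5 over Cy3 and the channel order of the labels, and Cy3 over Cy5 would turn the sign of every value. The limma test was fitted on all 5598 genes, with a Benjamini-Hochberg adjusted p under 0.05 as the threshold. Its p-values rest on the spread between 2 arrays, moderated by the spread of all genes (1.67 prior against 1 residual degree of freedom). The spread between the arrays may be purely technical, and so small a number of arrays limits how precise any value can be. A ratio does not separate less RNA per cell from fewer cells that hold it.

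Most of the assembly factor genes fell in pyruvate. Of the 53 genes, 42 were lower by limma (79.2%), 0 were higher and 11 did not pass, against 17.2% of all genes called lower and 27.1% called higher. At an unadjusted p under 0.05, 48 of the 53 passed and 0 of them were higher, while 1870 of all 5598 genes were higher at that threshold. The share of all genes lower at that threshold is not given, so the 48 have no matching background. The median of the 53 genes was -0.99 (1.99-fold lower), against 0.10 for all genes, and the members ranged between -1.61 and 0.19. On the separate arrays the median was -1.06 on array 1 and -0.91 on array 2, where the medians of all genes were 0.18 and 0.02. In 51 of the 53 genes the ratio was below 0 on both arrays, as it was in 36.3% of all genes. At least 2-fold lower on both arrays were 20 of the 53, against 4.81% of all genes.

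The assembly factor genes repeated closely between the arrays. The median absolute difference between the arrays was 0.13 for the 53 genes and 0.18 for all genes. The largest in the list was 0.54, in LOC1, followed by 0.53 in DBP2. Over the 53 genes, which share the same 2 hybridisations, the arrays correlated with a Pearson r of 0.91 and a Spearman rho of 0.92. Over all genes the Pearson r was 0.81. For 43 of the 53 the ratio on array 1 was below that on array 2, as it was for 2501 of all 5598 genes, and a lean of this kind cannot be told apart from a dye effect with 1 array for each dye order. Among the members, 30 were measured by 2 features, whose gap was 0.05 at the median and 0.17 at most.

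**Figure D1:**
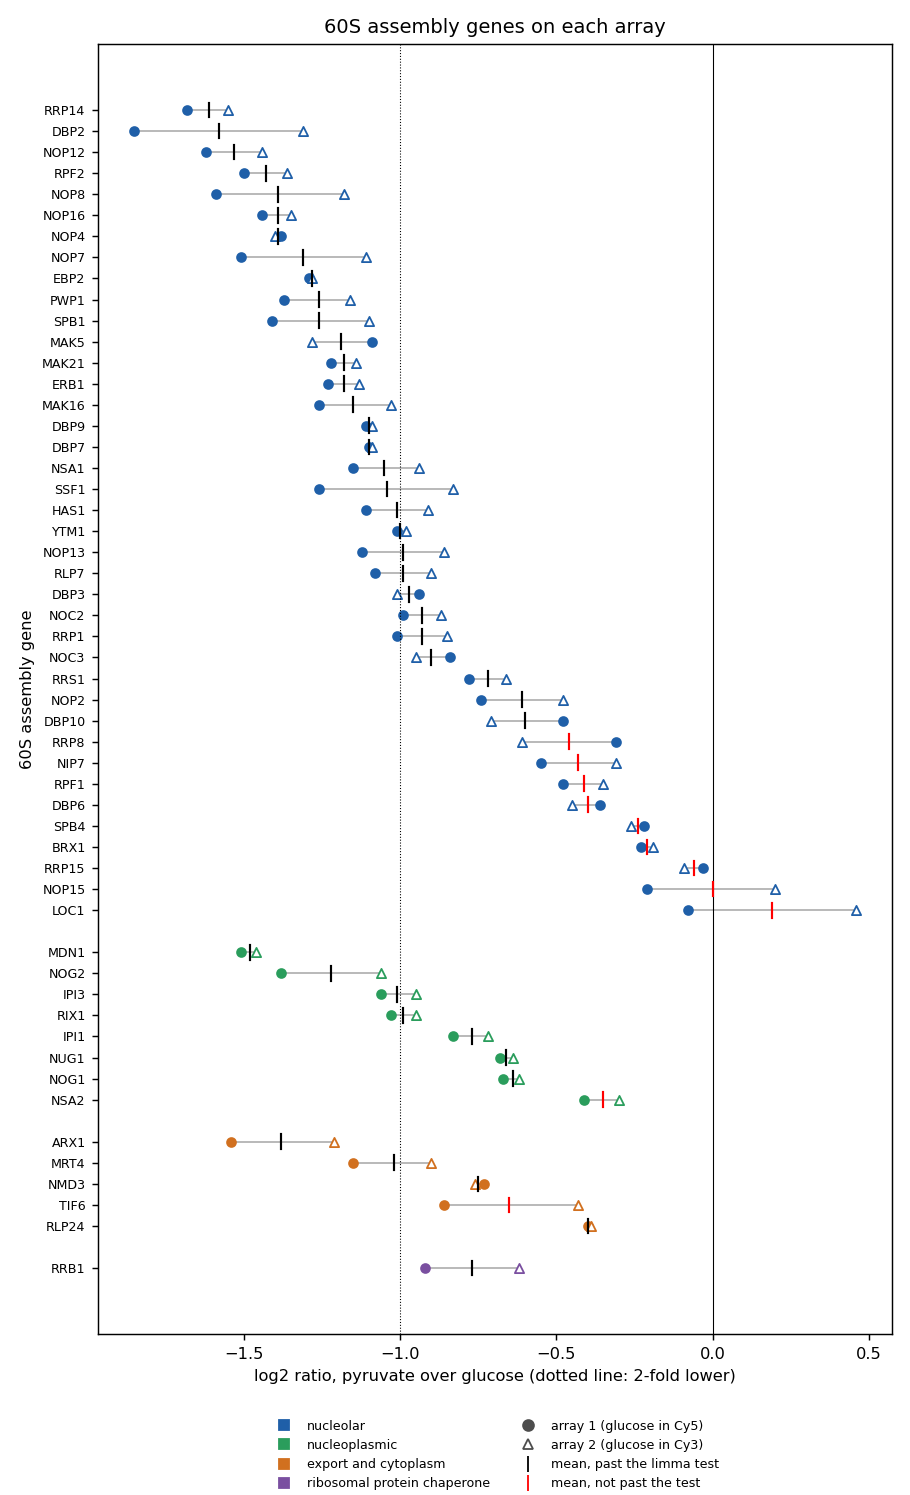
Log2 ratio of pyruvate over glucose (horizontal axis) of each assembly factor gene (vertical axis), with a circle for array 1, an open triangle for array 2 and a tick for their mean, coloured by stage and ordered within a stage. Nearly all points lie left of 0, and the points of 20 genes lie left of the dotted 2-fold line on both arrays, while NOP15 and LOC1 have points on each side of 0.

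**Figure D2:**
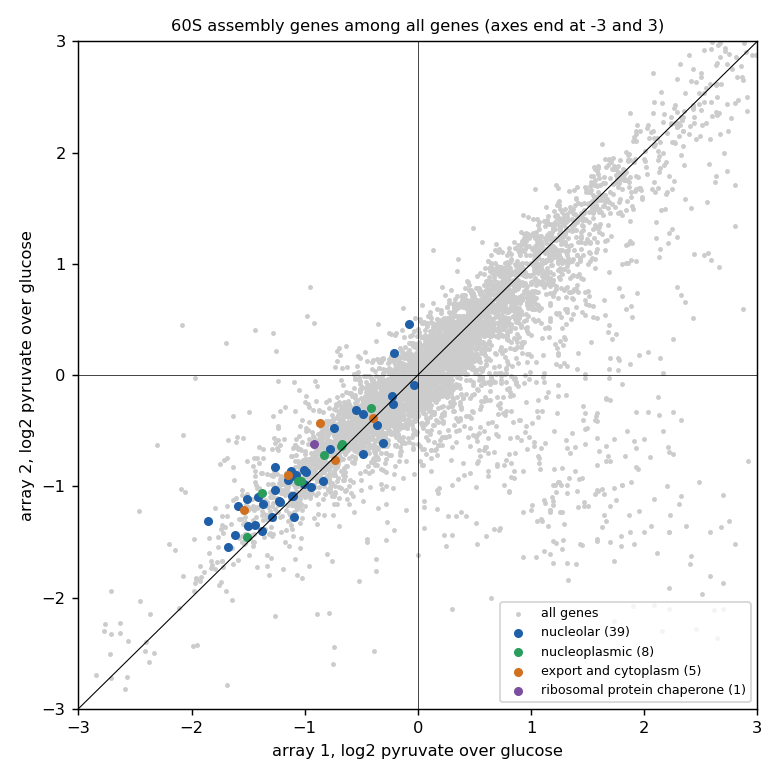
Log2 ratio of pyruvate over glucose on array 1 (horizontal) and array 2 (vertical) for all genes in grey and for the assembly factors in colour by stage. Of the 53 coloured points, 51 lie in the lower left part of the plot, below 0 on both axes, and 43 lie above the diagonal of equal values.

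Among the nucleolar factors 30 of 39 fell, and the lowest values of the whole list were found there. RRP14, which encodes a nucleolar partner of Ssf1, was at -1.68 on array 1 and -1.55 on array 2. It fell to 32.7% of its glucose level (-1.61 ± 0.09, limma adjusted p of 0.0127), which was rank 66 from the lowest of all genes. DBP2, a DEAD-box helicase gene whose product also acts on mRNA, was at -1.85 and -1.31, a wider gap than in most members (-1.58 ± 0.38, limma adjusted p of 0.0214). NOP12, an RNA-binding protein gene, was at -1.62 and -1.44 (-1.53 ± 0.13, limma adjusted p of 0.0133). Each of these was about 3-fold lower on the mean, at 3.06-fold, 2.99-fold and 2.89-fold.

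DEAD-box helicases unwind RNA duplexes in the precursor particle, and 7 of their 9 genes fell. Behind DBP2 came MAK5 (-1.09 on array 1 and -1.28 on array 2), DBP9 (-1.11 and -1.09) and DBP7 (-1.10 and -1.09), all at least 2-fold lower on both arrays. HAS1, whose product serves both subunits, was at -1.11 and -0.91, DBP3 at -0.94 and -1.01, and DBP10 at -0.48 and -0.71. The genes that did not pass were DBP6 (-0.36 and -0.45, limma adjusted p of 0.0527) and SPB4 (-0.22 and -0.26, limma adjusted p of 0.119). The means of the helicase genes ranged between -1.58 and -0.24. For DBP10 the call was lost with 1 feature per gene (limma adjusted p of 0.0655).

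Of the 5 genes for proteins with RNA recognition motifs, 4 fell, with a class median of -1.39, the lowest of the classes with more than 1 gene. NOP4 was at -1.38 on array 1 and -1.40 on array 2, and NOP8, whose product works with early helicases, at -1.59 and -1.18. NOP13 was at -1.12 and -0.86. NOP15, whose product binds the internal spacer that separates the mature rRNAs, was at -0.21 and 0.20, on either side of 0. A feature of NOP15 lay at a ratio of small whole numbers, which was read as a dim spot. So did 1 feature each of DBP6 and RPF1, which did not pass with dim features left out either (limma adjusted p of 0.0521 and 0.0593).

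The rRNA methyltransferase genes differed in size. SPB1, which encodes a ribose methyltransferase of the peptidyl transferase centre, was at -1.41 on array 1 and -1.10 on array 2 (2.39-fold lower). NOP2, a cytosine methyltransferase gene, was at -0.74 and -0.48 and passed with a limma adjusted p of 0.042. RRP8, which encodes an adenine base methyltransferase, was at -0.31 and -0.61 and did not pass (limma adjusted p of 0.0747).

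Genes for Brix domain proteins, a family of related rRNA-binding factors, and for RRS1, their partner, were split: 3 of 5 fell. RPF2, which with Rrs1 loads the ribonucleoprotein that carries Rpl5 and Rpl11, was at -1.50 on array 1 and -1.36 on array 2. RRS1 itself was at -0.78 and -0.66. SSF1 was at -1.26 and -0.83, and its near-identical copy SSF2, which is not a member, was at -0.14 and -0.02 and did not pass. Probes can bind both copies, so the values of this pair are uncertain. RPF1 (-0.48 and -0.35, limma adjusted p of 0.0556) and BRX1 (-0.23 and -0.19, limma adjusted p of 0.148) did not pass.

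Of the scaffold complexes, all 3 genes of the Nop7-Erb1-Ytm1 complex, which is required to process the internal spacer, fell. NOP7 was at -1.51 on array 1 and -1.11 on array 2, ERB1 at -1.23 and -1.13, and YTM1 at -1.01 and -0.98. The 3 genes of the Noc complexes, which bind the precursor as pairs in the nucleolus and nucleoplasm, fell as well, with MAK21 at -1.22 and -1.14, NOC2 at -0.99 and -0.87 and NOC3 at -0.84 and -0.95. The lowest minus the highest gene was -0.49 on array 1 and -0.13 on array 2 for Nop7-Erb1-Ytm1 (NOP7 minus YTM1), and -0.38 and -0.19 for the Noc genes (MAK21 minus NOC3).

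Of 10 other nucleolar factors, RLP7 not counted, 7 fell. NOP16 was at -1.44 on array 1 and -1.35 on array 2, EBP2 at -1.29 and -1.28, PWP1 at -1.37 and -1.16 and MAK16 at -1.26 and -1.03. NSA1 (-1.15 and -0.94) and RRP1 (-1.01 and -0.85) were close to them. NIP7 was at -0.55 and -0.31 and did not pass (limma adjusted p of 0.0703). RLP7, which was classed with the placeholders for ribosomal proteins and whose product resembles the ribosomal protein Rpl7 and binds the internal spacer, was at -1.08 and -0.90 and fell by 0.99 on the log2 scale.

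**Figure D3:**
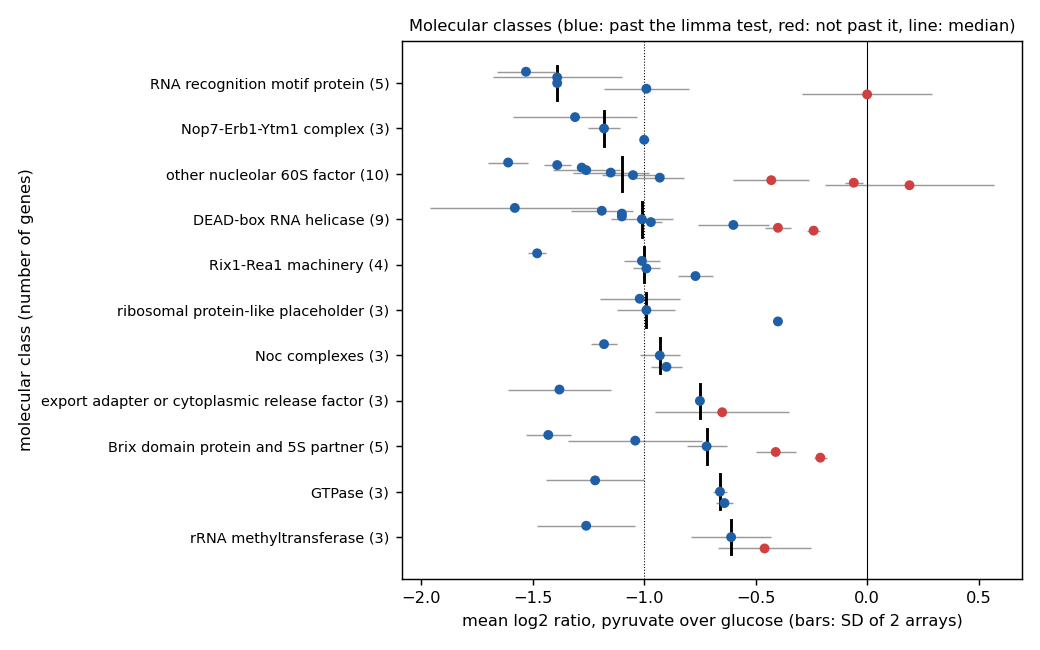
Mean log2 ratio of pyruvate over glucose (horizontal axis, bars are the SD of 2 arrays) for the assembly factor genes in molecular classes of more than 1 gene (vertical axis, ordered by the class median, drawn as a line). Points past the limma test are blue and the others red, and the class medians lie between -1.39 for RNA recognition motif proteins and -0.61 for rRNA methyltransferases.

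Partners within a complex did not always stand at like levels of change. These groupings, from textbook knowledge of the particles, were put together after the values were seen, each pair is the lowest and highest gene of its grouping, and no test of differences between genes was run. Ssf1, Rrp14 and Rrp15 sit together in the nucleolar particle, and RRP14 minus RRP15 was -1.65 on array 1 and -1.46 on array 2. Ebp2 and Brx1 bind each other, and EBP2 minus BRX1 was -1.06 on array 1 and -1.09 on array 2. In the module of Nsa1, Mak16, Rrp1 and Rpf1, MAK16 minus RPF1 was -0.79 and -0.68. For RPF2 minus RRS1 the values were -0.73 and -0.71.

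Of the 11 genes that did not pass, 6 were at an unadjusted p under 0.05. These were TIF6, RRP8, NIP7, RPF1, DBP6 and NSA2, with means between -0.65 and -0.35. For the other 5 the limma interval at a level of 95% included 0. SPB4 was at -0.24 (interval -0.52 to 0.05), BRX1 at -0.21 (-0.49 to 0.08) and RRP15 at -0.06 (-0.35 to 0.23). For NOP15 the interval was -0.52 to 0.51. LOC1, which encodes a nucleolar protein that also takes part in ASH1 mRNA localisation, had the highest mean of the list at 0.19, with -0.08 on array 1 and 0.46 on array 2 (interval -0.44 to 0.82). The interval of RRP15 lay above the median of the list, -0.99, and so did those of the other four.

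Of the 8 nucleoplasmic genes 7 fell, with a median of -0.88. MDN1, the giant AAA ATPase that pulls factors off the particle, was the lowest at -1.51 on array 1 and -1.46 on array 2 (2.79-fold lower, limma adjusted p of 0.0127). The genes of the Rix1 complex, which docks it, were IPI3 at -1.06 and -0.95, RIX1 at -1.03 and -0.95 and IPI1 at -0.83 and -0.72, and all passed. MDN1 lay below the 3 subunit genes on both arrays.

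The 3 GTPase genes of this stage passed too. NOG2, whose GTPase holds the particle until remodelling is complete, was at -1.38 on array 1 and -1.06 on array 2. NUG1 was at -0.68 and -0.64 and NOG1, which blocks the exit tunnel region until the cytoplasm, at -0.67 and -0.62. NSA2, a nuclear factor that acts between the nucleolar and export steps, was at -0.41 and -0.30 and did not pass (limma adjusted p of 0.0692).

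Of the 5 export and cytoplasmic genes 4 fell, with a median of -0.75. ARX1, an export receptor that binds at the tunnel exit, was at -1.54 on array 1 and -1.21 on array 2 (2.60-fold lower, limma adjusted p of 0.0174). NMD3, the adapter that recruits the exportin Crm1, was at -0.73 and -0.76 (1.68-fold lower). MRT4, the placeholder for the stalk protein P0, was at -1.15 and -0.90. TIF6, which keeps the subunits from joining too early, was at -0.86 and -0.43 and did not pass (limma adjusted p of 0.0632). RLP24, the placeholder for Rpl24 that activates the stripping ATPase in the cytoplasm, was at -0.40 and -0.39 and passed narrowly (limma adjusted p of 0.0497). Its call was lost with arrays scaled to the same spread (0.0546) and with 1 feature per gene (0.0501).

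The values of the nucleolar and export stages overlapped. The nucleolar median was -1.01 and the export median -0.75, a difference of -0.26, with -0.24 on array 1 and -0.19 on array 2. All 5 export genes lay between -1.38 and -0.40, inside the nucleolar range of -1.61 to 0.19. With NMD3 and ARX1 alone as the export stage the difference turned to 0.05, and with the other assembly genes described below added to both stages it was -0.24. No test of this difference was run. The share called lower was 30 of 39 in the nucleolar stage, 7 of 8 in the nucleoplasmic stage and 4 of 5 in the export stage.

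The large subunit assembly genes outside the list were for the most part lower too. Among 33 such genes limma called 24 lower (72.7%, against 17.2% of all genes) and 0 higher (against 27.1%). At an unadjusted p under 0.05, 0 were higher. The other 9 were left uncalled, and the list's median was -0.88. The lowest were SDA1, a nucleoplasmic factor (-1.54 ± 0.27), PUF6, an RNA-binding protein (-1.48 ± 0.07), and LSG1, the cytoplasmic GTPase that releases Nmd3 (-1.47 ± 0.06). The highest were BMT6, an rRNA base methyltransferase gene, with 0.31 on array 1 and -0.33 on array 2, SSF2 at -0.08 ± 0.09, and RCM1, another methyltransferase gene, and LAS1, a spacer endonuclease gene, both at -0.11. By stage 8 of 14 nucleolar, 5 of 6 nucleoplasmic and 11 of 13 export and cytoplasmic genes fell, with medians of -0.61, -1.20 and -0.76. In these genes the order of the stage medians thus differed from that in the 53.

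The large subunit factors, with a median of -0.99, stood beside a median of -1.05 for 47 processome genes of the small subunit. Of these limma called 40 lower (85.1%, against 17.2% of all genes) and 0 higher (at an unadjusted p under 0.05, 0 higher). The lowest were ENP2 (-1.83 ± 0.08), DHR2 (-1.73 ± 0.07) and KRI1 (-1.50 ± 0.08), and the highest RCL1 (0.21 ± 0.03), RRP7 (0.19 ± 0.07) and IMP3 (-0.06 ± 0.08). The 81 genes of large subunit ribosomal proteins, the parts that the factors assemble, had a median of -0.64. Of the 81, 30 fell (37.0%, against 17.2% of all genes) while 51 did not pass. That list stood at -0.97 on array 1 and -0.44 on array 2, with 78 of 81 genes lower on array 1 (2501 of 5598 for all genes), and its median SD over the arrays was 0.31 against 0.09 for the assembly factors. No test of the difference between these lists was run.

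**Figure D4:**
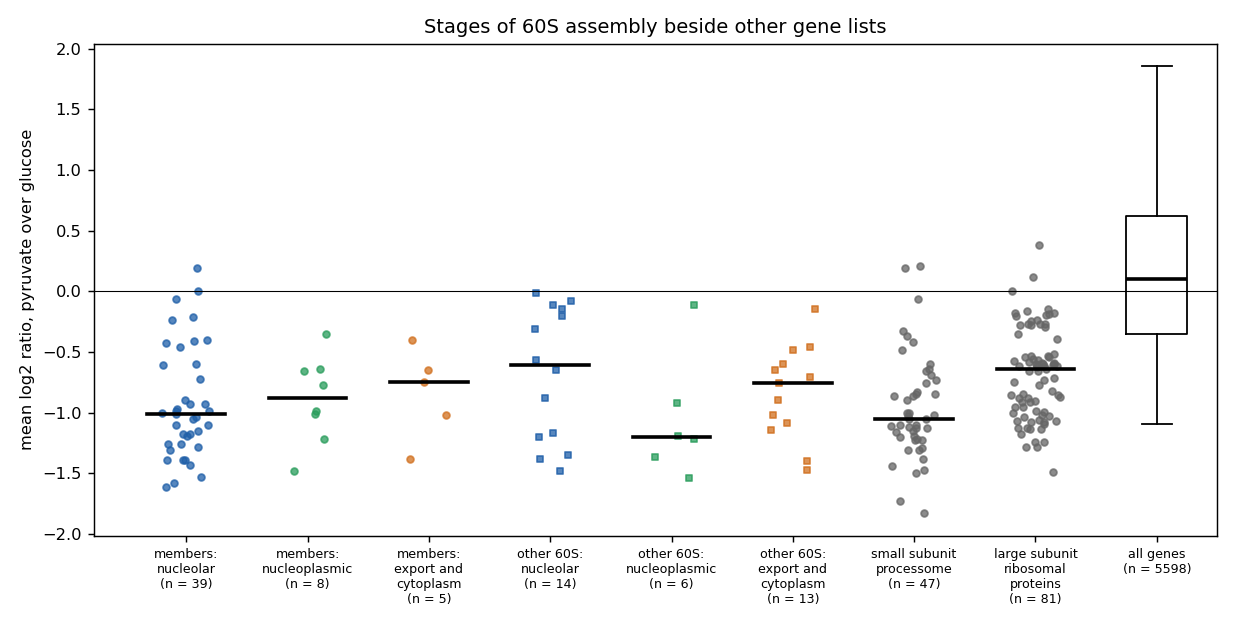
Mean log2 ratio of pyruvate over glucose (vertical axis) for the 53 members by stage without RRB1 (circles), the other assembly genes of the large subunit by stage (squares), processome and ribosomal protein genes (grey) and all genes (box from the lower to the upper quartile, whiskers at percentiles 5 and 95). Lines are medians, which lie at -1.01, -0.88 and -0.75 for the members' stages and at 0.10 for all genes.

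Several factors handle, stand in for or resemble a particular ribosomal protein, and the values of both are set side by side. RRB1, the chaperone that brings Rpl3, was at -0.92 on array 1 and -0.62 on array 2 and passed, and RPL3 was at -1.60 and -0.56 and did not pass (limma adjusted p of 0.0941). RLP7, paired here only because its product resembles Rpl7, was lower on both arrays, as given above. RPL7A (-1.25 and -1.23) and RPL7B (-0.75 and -1.26) fell too. MRT4 was at -1.15 and -0.90, and RPP0, the gene of the P0 protein that replaces it, at -1.49 and -0.33. NMD3 stood beside RPL10, whose product completes the subunit when Nmd3 leaves, at -1.21 and -0.32.

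RPF2, at -1.50 and -1.36, stood beside RPL5 (-1.45 and -0.75, limma adjusted p of 0.0507), RPL11A (-0.30 and -0.12) and RPL11B (0.07 and 0.16). RLP24, at -0.40 and -0.39, stood beside RPL24A (-0.75 and -0.40) and RPL24B (-0.45 and -0.10), so that array 1 was nearer to RPL24B and array 2 to RPL24A. Of these 10 ribosomal protein genes 2 passed, RPL7A and RPL7B, a share close to the 17.2% of all genes called lower. In 9 of the 10 array 1 was below array 2, as it was for 2501 of all 5598 genes. The ribosomal proteins with paired genes are uncertain one by one, since probes can bind both copies.

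**Figure D5:**
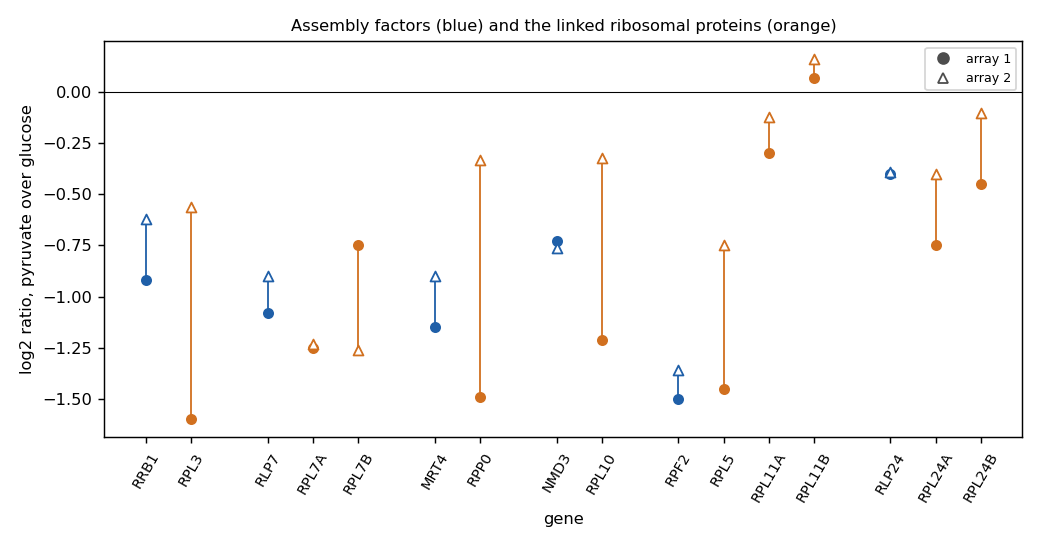
Log2 ratio of pyruvate over glucose (vertical axis) of 6 assembly factor genes (blue) and of the ribosomal protein genes linked to them (orange), with a circle for array 1 and an open triangle for array 2. The factor genes have short lines between the arrays, while RPL3, RPP0 and RPL10 have long ones, between -1.60 and -0.32.

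The genes next to the assembly factors on the chromosomes had a median close to 0. The factors had 99 distinct measured neighbours, none of them another member, in the order of the reference annotation. Of these 23 were lower (23.2%, against 17.2% of all genes), 24 were higher (against 27.1% of all genes) and 52 did not pass. Their median was -0.02, against 0.10 for all genes. In the other assembly lists were 6 of the neighbours, such as DBP8 beside NMD3 (-1.24 and -1.23) and NOP56 beside PWP1 (-0.56 and -0.40). BRX1 runs towards ATP19, an ATP synthase subunit gene at 2.64 on array 1 and 2.79 on array 2, a pair picked after its values were seen. No label says whether the probes separate the strands.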

How the data were processed

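The values were the authors' deposited table of log2 ratios of the 2 channels for 10807 features on 2 arrays, per the labels a dye swap. Base 2 was inferred from array 1, where 935 features equalled log2 of a quotient of integers from 1 to 10 (to 3 decimals). After other offsets at most 240 did so. On array 2, 784 features did so after an offset of 0.008, against at most 401 after other offsets, a weaker separation. Features that matched on either array were read as dim. Scanner, background correction and scaling: not given in the sources used here. The deposited medians were -0.294 and -0.076. Array 1 was multiplied by -1. The deposited columns correlated at -0.809 over features of named genes, 0.861 over unnamed features and 0.157 over all.

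Features with 1 gene in the platform annotation (9202) were named by gene identifier, 9194 of them with a current symbol, and averaged per gene and array. No coordinates are given, since no source names a build. Genes were tested with limma 3.58.1 in R 4.3.3 (lmFit, eBayes, 1 residual and 1.67 prior degrees of freedom, Benjamini-Hochberg over 5598 genes). The code was tested on simulated data. Tables and figures used Python 3.11.15, pandas 2.3.3 and matplotlib 3.10.9.

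The members and lists were chosen with earlier results of these data known. Any member could be named, and of the other lists the 3 lowest and 3 highest genes and the ribosomal protein partners; RCM1 and LAS1 tie for one place, and the neighbours were chosen after their values were seen. Promoter motifs were not analysed here.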

Additional observations from a re-analysis of the deposited data

How the results depend on the processing

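The count of assembly factor genes called lower, 42, was between 41 and 47 when arrays were centred or scaled, with 1 feature per gene, without dim features and with robust moderation. In these settings the share of all genes called lower lay between 16.8% (1 feature per gene) and 22.2% (centred arrays). The 47 came with centred arrays, where 1241 genes in all were called lower, against 963 in the main setting. Leaving out DBP2, NOP13 and RRB1, each itself called lower, gave 39 from the same fit, which follows from the main count. The count was 13 against a minimum change of 1.5-fold, where 184 genes in all (3.29%) were called lower. Without moderation it was 0, where 5 genes in all were called lower. In that setting 22 of the 53 were at an unadjusted p under 0.05, and the share of all genes at that threshold is not given. The median of the 53 genes was -1.09 with centred arrays and between -1.06 and -0.91 on single arrays (without replicate 2 and without replicate 1). The difference of nucleolar and export medians, -0.26, was between -0.24 and -0.19 on single arrays. It turned to 0.05 with NMD3 and ARX1 alone as the export stage and was -0.31 with NOG1 added, choices that change which genes enter the median. NOP15 turned to 0.01 with scaled arrays. With centred arrays 5 more genes passed, TIF6, RRP8, NIP7, RPF1 and DBP6, each shifted down with the whole array. A count by limma on 1 array has no residual degree of freedom, so none is given. The promoter motif settings were not run. Each value is a ratio within an array, so the conditions were already paired, and with 1 group of arrays no further block by replicate number could be fitted. Signal over background is not part of the values used, so compression of bright spots could not be examined.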
